A study of Mus musculus with 6 samples.

Results

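The genes described here are Sparc, Tnc, Thbs1, Fn1, Tgfbi, Ecm1 and Vim, 7 of the 47643 gene IDs counted in mouse submandibular salivary gland organoids (mSGOs). The first 6 encode secreted proteins of the extracellular matrix, and Vim encodes an intermediate filament protein of mesenchymal cells. The 7 genes were selected on their measured difference between day 5 and day 7, with those values already known, so their differences between days are given as a description and carry no test. All 7 had enough counts to enter the fit across all genes, and their smallest count in any library was 33.

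Glands of C57BL/6 mice aged 8 to 12 weeks were dissociated, the cells were cultured as organoids in Matrigel, and the organoids were collected after 5 or 7 days, 1 library per mouse and day from the same 3 mice. Both days shared WRY medium, which holds EGF, FGF2, N2, insulin, dexamethasone, the ROCK inhibitor Y27632, R-spondin1-conditioned medium and Wnt3a-conditioned medium, and no organoid was irradiated or otherwise treated. Polyadenylated RNA was read from the 3′ end of each transcript (QuantSeq), with 1918198 to 2837397 reads in genes per library. Values are counts per 1000000 reads in genes (CPM) after TMM scaling, and they compare 1 gene between libraries, not different genes with each other.

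Matricellular proteins are secreted into the matrix but act on cells more than they hold tissue together. SPARC binds collagen and calcium, tenascin-C (Tnc) is a hexameric glycoprotein typical of developing and healing tissue, and thrombospondin-1 (Thbs1) binds matrix, cell surfaces and latent TGF-beta. Fibronectin (Fn1) is the integrin-binding glycoprotein on which much other matrix assembles, Tgfbi encodes a TGF-beta-induced integrin ligand, and Ecm1 encodes a secreted glycoprotein of skin and other epithelia. Vimentin is widely used as a marker of mesenchymal cells and of epithelial cells that migrate or sit in culture. In the salivary gland, the stroma is a major source of such proteins, while the basal side of ducts and acini faces a basement membrane of laminin and type IV collagen.

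All 7 genes are protein-coding genes of GRCm39 (GENCODE vM39). Sparc (ENSMUSG00000018593) lies at chr11:55285317-55314067 on the minus strand, Tnc (ENSMUSG00000028364) at chr4:63878014-63965443 on the minus strand and Thbs1 (ENSMUSG00000040152) at chr2:117941974-117957616 on the plus strand. Fn1 (ENSMUSG00000026193) lies at chr1:71624673-71692419 on the minus strand, Tgfbi (ENSMUSG00000035493) at chr13:56757336-56787375 on the plus strand, Ecm1 (ENSMUSG00000028108) at chr3:95640761-95646943 on the minus strand and Vim (ENSMUSG00000026728) at chr2:13578738-13587639 on the plus strand. Long non-coding RNAs on the opposite strand share exon bases with Thbs1, Tnc and Fn1, but these antisense genes held 4 counts at most over the 6 libraries. Exons of Gm65204 and Gm54102 lie opposite those of Ecm1 and Vim, and these IDs were not used here, so reads of either strand of those 2 genes cannot be told apart where counting ignored strand.

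The RefSeq promoter table (GRCm38.p6) gave 6 promoters for 5 of the 7 genes, with no entry for Thbs1 or Fn1. Sparc, Ecm1 and Tgfbi are shown because their genes were past the threshold and their starts lie within 62 bases of the canonical GENCODE start. Each run holds the 130 bases before the RefSeq start, 5′ to 3′ on the strand of the gene, and was found at a single place in GRCm39. Capitals mark matches to 6 short motifs. The TATA box (TATAAA) was searched on the sense strand. Both strands were searched for the CCAAT box by its own letters, the GC box written as GGGCGG, an AP-1 site with the letters TGACTCA, a TEAD site with the letters GGAATG, and finally the core of the hypoxia response element, which was spelled ACGTG.
Sparc, chr11:55310907-55311036, minus strand: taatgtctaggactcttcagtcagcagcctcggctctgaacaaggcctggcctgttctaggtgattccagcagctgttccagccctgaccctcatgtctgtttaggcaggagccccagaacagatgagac
Ecm1, chr3:95646882-95647011, minus strand: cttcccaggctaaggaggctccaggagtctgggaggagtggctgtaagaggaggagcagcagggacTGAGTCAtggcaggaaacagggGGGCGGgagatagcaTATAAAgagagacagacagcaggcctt
Tgfbi, chr13:56757269-56757398, plus strand: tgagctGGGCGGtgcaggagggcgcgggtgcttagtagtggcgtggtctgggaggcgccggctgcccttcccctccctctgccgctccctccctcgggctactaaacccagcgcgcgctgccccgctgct

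None of the 6 motifs occurred in the 250 bases before the Sparc start. Ecm1 held TATAAA from -27 to -22, GGGCGG from -42 to -37 and, on the opposite strand, the AP-1 letters from -64 to -58 relative to its start. In Tgfbi the only match was GGGCGG from -124 to -119. Of the promoters not printed, Vim held TATAAA from -32 to -27 and CCAAT at a pair of places, and both Tnc starts had TATAAA and GGGCGG farther upstream. Among all 32851 promoters of the table, TATAAA was found in 7.59%, GGGCGG in 32.7%, CCAAT in 33.85%, the AP-1 letters in 4.46%, GGAATG in 12.6% and ACGTG in 16.6% of the same 250 bases. A match describes the letters of the window and is not evidence of a bound factor.

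Of the 7 genes, 5 were past the threshold used across all genes (an adjusted p under 0.05 in edgeR's quasi-likelihood test and an absolute log2 fold change over 0.6), each of them higher at day 7. Of all 15792 genes tested, 7.22% were past it and higher, 4.82% past it and lower, and 12.0% past it in either direction. The same 5 genes, Sparc, Tnc, Fn1, Tgfbi and Ecm1, had no overlap between their day 5 and day 7 libraries, which held in the higher direction for 15.4% of all genes tested. These shares are background only, since the day difference itself chose the genes. The mean was higher at day 7 in all 7 genes, and 6 of them were higher at day 7 in each of the 3 mice. The median log2 fold change of the 7 was 1.34, beside -0.0073 over all genes tested. Of the genes past the threshold, Ecm1 had the smallest log2 fold change at 0.76, and the 2 genes not past it, Thbs1 and Vim, were at 0.42 and 0.35.

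**Figure D1:**
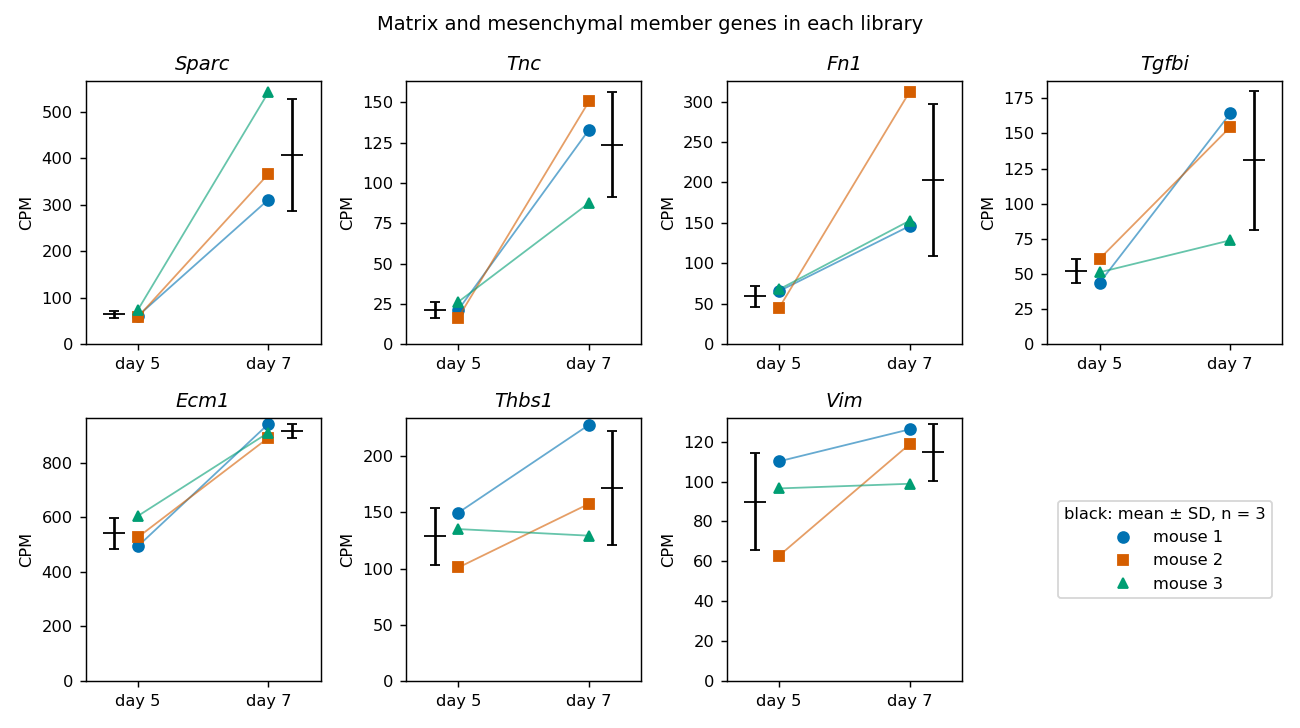
CPM of the 7 genes in each of the 6 libraries, 1 panel per gene with its own linear axis from 0, a line joining the day 5 and day 7 library of each mouse, and black bars for the mean ± SD (n = 3). The lines of Sparc, Tnc, Fn1, Tgfbi and Ecm1 all rise without overlap between days, while the days overlap for Thbs1 and Vim, where the folds of mouse 3 were 0.957 and 1.02.

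Sparc had the largest fitted fold of the 7 genes with all 6 libraries. Sparc was counted at 60.6, 58.2 and 73.5 CPM in the 5-day mSGOs of mice 1, 2 and 3 and at 311, 366 and 542 CPM in their 7-day mSGOs. Every 7-day library was thus above every 5-day library by a wide margin, and the day 7 values were more spread than those of day 5. The means were 64.1 ± 8.21 and 406 ± 121 CPM (SD, n = 3), and the fitted log2 fold change was 2.66 ± 0.23 (SE). Each SE given here comes from the fit, which shares information on spread across genes and days, and is not the spread between mice. Within mice, Sparc was 5.13-fold, 6.29-fold and 7.37-fold higher at day 7. Without the 7-day library of mouse 3 its log2 fold change was 2.39, below the 2.70 of Tnc in the same fit.

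For Tnc, the fold was larger than that of Sparc in mice 1 and 2 and smaller in mouse 3. Its 5-day level was 21.4, 16.6 and 26.3 CPM in mice 1 to 3, which became 133, 151 and 87.6 CPM at day 7. The libraries of the 2 days did not overlap, but mice differed more in Tnc than in Sparc, with folds of 6.21, 9.09 and 3.33 in the same order. Mean Tnc was 21.4 ± 4.87 CPM at day 5 and 124 ± 32.5 CPM at day 7 (SD, n = 3), which corresponded to 2.52 ± 0.25 (SE) on the log2 scale. Mouse 3, which had the highest Sparc at day 7, had the lowest Tnc.

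The third matricellular gene, Thbs1, differed from both. Libraries of mice 1 to 3 held 150, 101 and 135 CPM at day 5, against 228, 158 and 129 CPM at day 7. Mice 1 and 2 were 1.52-fold and 1.56-fold higher at day 7, whereas mouse 3 was at 0.957 of its 5-day value, and the days overlapped. With means of 129 ± 25.0 and 172 ± 50.8 CPM (SD, n = 3), the log2 fold change of 0.42 ± 0.23 (SE) was not past the threshold.

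Fibronectin RNA was higher at day 7 in all 3 mice, mostly in 1 of them. Fn1 measured 65.6, 44.7 and 67.7 CPM at day 5, and 146, 312 and 153 CPM at day 7. The 7-day library of mouse 2 stood far above those of mice 1 and 3, and its 5-day library was the lowest of all 6. The fold in mouse 2 was 6.98, compared with 2.23 and 2.25 in mice 1 and 3. Averaged over mice, Fn1 was at 59.3 ± 12.7 and 204 ± 94.0 CPM (SD, n = 3), with a fitted log2 fold change of 1.78 ± 0.27 (SE), which was 1.33 without the 7-day library of mouse 2.

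Tgfbi, the TGF-beta-induced integrin ligand, read 43.7, 60.8 and 51.2 CPM in 5-day mSGOs and 164, 154 and 73.9 CPM in 7-day mSGOs. The days did not overlap, although the 7-day library of mouse 3 was only slightly above the highest 5-day library. Folds within mice 1, 2 and 3 were 3.75, 2.54 and 1.44. The means of 51.9 ± 8.54 and 131 ± 49.5 CPM (SD, n = 3) gave 1.34 ± 0.26 (SE) on the log2 scale.

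Ecm1 had the smallest difference among the 5 genes past the threshold and the most even one. Mice 1, 2 and 3 had 494, 527 and 605 CPM at day 5 and 943, 892 and 911 CPM at day 7. Folds were 1.91, 1.69 and 1.51, and the coefficient of variation was 10.5% at day 5 and 2.79% at day 7. From 542 ± 57.1 CPM at day 5, Ecm1 reached 915 ± 25.6 CPM at day 7 (SD, n = 3), a difference of 0.76 ± 0.18 (SE) in log2. It was no longer past the threshold without any 1 of the 5-day libraries, at 0.69 without mouse 1, 0.74 without mouse 2 and 0.84 without mouse 3.

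Vimentin RNA showed the least difference. Vim was at 110, 62.8 and 96.6 CPM at day 5 and at 126, 119 and 98.9 CPM at day 7. It was 1.89-fold higher in mouse 2, whose 5-day library was the lowest, and 1.15-fold and 1.02-fold higher in mice 1 and 3. The days overlapped, and 89.8 ± 24.4 against 115 ± 14.1 CPM (SD, n = 3) amounted to a log2 fold change of 0.35 ± 0.22 (SE), which was not past the threshold.

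**Figure D2:**
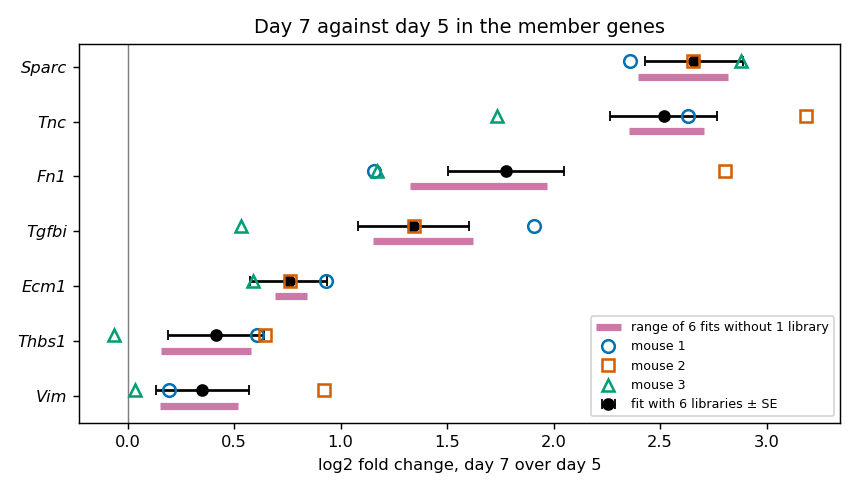
Log2 fold change of day 7 over day 5 for each of the 7 genes, with the edgeR estimate ± SE in black, the ratio within each mouse as open symbols, and a pink bar for the range of the 6 fits without 1 library. Sparc (2.66) and Tnc (2.52) lie farthest from 0, Thbs1 (0.42) and Vim (0.35) nearest to it, and mouse 2 stands apart from the other mice in Fn1 with a fold of 6.98.

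The 7 genes did not follow a single order of mice. At day 7 the highest library was that of mouse 1 for Tgfbi, Ecm1, Thbs1 and Vim, mouse 2 for Tnc and Fn1 and mouse 3 for Sparc, and the lowest was mouse 3 for Tnc, Tgfbi, Thbs1 and Vim. Among the 1140 genes that were past the threshold and higher at day 7, mouse 1 had the highest 7-day library in 21.2%, mouse 2 in 39.0% and mouse 3 in 39.7%. The coefficient of variation was larger at day 7 than at day 5 in 5 of the 7 genes, the exceptions being Ecm1 and Vim. The 7-day libraries varied more in general, with a biological coefficient of variation of 0.2895 at day 7 and 0.0897 at day 5 over the genes tested. In bulk samples like these, fewer cells of a type and less RNA per cell cannot be told apart. The labels give no preparation batch, so the day and any batch that follows it cannot be told apart either.

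To compare the profiles, the log2 CPM of each gene was centred over the 6 libraries, without scaling. The root mean square (RMS) difference between genes was then taken, which reflects the size of the day difference as well as the shape of the profile. Thbs1 and Vim were the closest pair at an RMS difference of 0.168, and both also lay near Ecm1, at 0.347 and 0.336. Sparc and Tnc differed by 0.473 and Tnc and Fn1 by 0.479. The most distant pair was Sparc and Thbs1 at 1.22. These differences describe 6 libraries that share days and mice and were not tested.

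**Figure D3:**
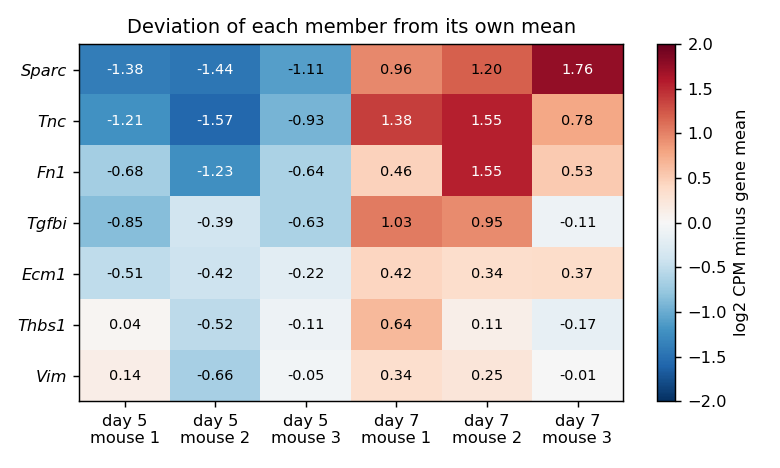
Log2 CPM of the 7 genes in the 6 libraries minus the mean of each gene, as a heat map (red above the mean, blue below) with the value in each cell and the libraries ordered by day and mouse. Sparc and Tnc have the strongest contrast between days, Thbs1 and Vim the weakest, and the 7-day library of mouse 2 is highest in Fn1.

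Over the 8072 named protein-coding genes that averaged 10 CPM or more, those with the profile nearest to each gene came from varied families. Nearest to Sparc were Lgals7 (a galectin of stratified epithelium), Fgf1 (a growth factor) and Aqp4 (a water channel), at RMS differences of 0.223, 0.241 and 0.290. Tnc was nearest to Jun (an AP-1 subunit) at 0.147, Camk2n1 at 0.208 and Tns1 (a focal adhesion protein) at 0.239. For Fn1 they were Zcchc24 at 0.163, Cldn4 (a tight junction claudin) at 0.170 and Btg2 at 0.253. Tgfbi lay nearest to Tmprss11b at 0.123, Gsto1 at 0.165 and Id3 (an inhibitor of basic helix-loop-helix factors) at 0.177. Ecm1 had Inhbb (an activin subunit) at 0.0791, Zswim6 at 0.0807 and Fbln2 (a matrix fibulin) at 0.0817. Thbs1 and Vim, with the smallest fold changes, had close neighbours in Rictor (0.0963), Jmy (0.106) and Fyco1 (0.113) and in Cyb5r4 (0.0778), Fzd7 (0.0795) and Ccdc90b (0.0977).

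Next, 9 lists of related genes, 196 genes in all, were set beside the 7 members. Of these, 152 were tested, 30 were past the threshold and higher at day 7 and 4 were past it and lower, which makes 22.4% in either direction beside 12.0% of all genes tested. Their median log2 fold change was 0.32. By list, the share past the threshold was 28.6% to 33.3% for matricellular relatives, collagens, glycoproteins and proteoglycans, crosslinking and collagen processing, and TGF-beta signalling. It was 16.7% for epithelial identity, 14.3% for filament and contractile partners, 4.35% for receptors and 0% for mesenchymal regulators and cadherins. The share over all genes depends on the count filter. With a mean count of at least 10, 23 of 106 list genes were higher and 2 lower, beside 943 higher and 682 lower of 10001 genes. With library totals as the only scaling, 26 list genes were higher and 5 lower. Over all genes the split then moved from 1140 higher and 761 lower to 950 higher and 1008 lower. The lists gave 14 to 16 higher and 1 or 2 lower genes without any 1 of the 5-day libraries. Leaving out a 7-day library gave 29 higher and 12 lower (without mouse 1), 19 and 1 (without mouse 2) or 41 and 4 (without mouse 3). With mouse as a block, 32 were higher and 7 lower. Adjusted p-values are from edgeR's quasi-likelihood test with Benjamini-Hochberg adjustment over all genes tested in the same fit. These were 15792 genes in the main fit, under robust estimation and with mouse as a block, and 15229 to 15415 genes without 1 library.

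Relatives of the matricellular genes moved in both directions. Of 22 genes, 7 had no count in any library and 12 were tested, of which 2 rose, 2 fell and the median log2 fold change was 0.79. Sparcl1, the closest relative of Sparc, went from 2.06, 1.00 and 1.44 CPM to 118, 31.2 and 16.6 CPM in mice 1 to 3. That was the largest log2 difference of the list at 5.14 ± 0.66 (SE, adjusted p = 5.2e-05, edgeR), with an adjusted p of 0.052 under robust estimation. Without the 7-day library of mouse 1, which held the 118 CPM, it was 3.95 (adjusted p = 1.6e-06, edgeR). Spp1 (osteopontin) fell from 48.7, 55.7 and 47.6 CPM to 18.4, 12.2 and 31.8 CPM, a log2 fold change of -1.31 ± 0.29 (adjusted p = 0.0056, edgeR), which was -1.23 with an adjusted p of 0.055 without the 5-day library of mouse 2. Thbs2, the sister gene of Thbs1, fell from 27.2, 30.1 and 42.9 CPM to 17.6, 12.2 and 24.5 CPM, a log2 fold change of -0.91 ± 0.29 just past the threshold (adjusted p = 0.046, edgeR). Its call was lost in 9 of the alternative settings, among them every fit without 1 library except the one without the 7-day library of mouse 3, where the log2 fold change ran from -1.04 to -0.68. Ccn1, the TEAD and serum response target, was chosen after its value was seen. It was at 1.18 with an adjusted p of 0.19 in edgeR, and at 0.98 with an adjusted p of 0.024 when mouse was kept as a block.

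Collagen genes that changed all rose. Of 26, 21 were tested and 6 were past the threshold, with a median log2 fold change of 0.73, or 0.45 with genes at 0 in 1 day set to their bound. Col11a1, a fibrillar collagen of cartilage and fetal tissue, rose from 2.47, 1.00 and 2.52 CPM to 21.1, 39.2 and 25.9 CPM (log2 fold change 3.77 ± 0.39, adjusted p = 5.7e-06, edgeR). Of the basement membrane collagen IV genes, those named by the rule were Col4a5, which rose by 1.60 ± 0.26 in log2 (adjusted p = 0.00046, edgeR), and Col4a4, which rose by 1.91 ± 0.42 (adjusted p = 0.0056, edgeR) and was at 1.55 with an adjusted p of 0.054 without the 5-day library of mouse 1. The main basement membrane chains Col4a1 and Col4a2, added after their values were seen, were not past the threshold, at 0.15 ± 0.20 (adjusted p = 0.69, edgeR) and 0.40 ± 0.24 (adjusted p = 0.30, edgeR). The fibrillar collagens Col1a2 and Col3a1 had no count in any library, and Col1a1 had 2 counts at day 5 and 4 at day 7.

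Among 39 other matrix glycoproteins and proteoglycans, 24 were tested, 6 rose and 1 fell, with a median log2 fold change of 0.56, or 0.27 with genes at 0 in 1 day at their bound. Matn2, a matrilin, rose from a mean of 3.64 ± 0.36 to 21.5 ± 6.77 CPM (SD, n = 3; log2 fold change 2.56 ± 0.35, adjusted p = 0.00011, edgeR). Ltbp1, which tethers latent TGF-beta to the matrix, rose by 0.99 ± 0.22 (adjusted p = 0.0062, edgeR), and by 0.93 with an adjusted p of 0.069 without the 5-day library of mouse 2. Fbln2 rose by 0.76 ± 0.20 (adjusted p = 0.015, edgeR) but missed the threshold without any 1 of the 5-day libraries, at 0.74, 0.71 and 0.84 without mice 1, 2 and 3. The gene that fell was Nid1, the basement membrane linker nidogen-1, at -1.04 ± 0.28 (adjusted p = 0.022, edgeR), named after its value was seen. With mouse as a block, 5 rose and 3 fell, the added genes that fell being Lamb1 (a laminin chain) at -0.63 (adjusted p = 0.045, edgeR) and Igfbp7 at -0.63 (adjusted p = 0.048, edgeR).

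Of 24 genes for crosslinking and collagen processing, 22 were tested, 6 rose and 1 fell, and the median log2 fold change was 0.36. Tgm2, the transglutaminase that crosslinks fibronectin, rose from 7.42, 7.53 and 6.49 CPM to 28.4, 79.5 and 77.3 CPM (log2 fold change 3.11 ± 0.36, adjusted p = 1.5e-05, edgeR). P4ha1 and P4ha2, the catalytic subunits of collagen prolyl 4-hydroxylase, rose by 1.78 ± 0.22 (adjusted p = 2.8e-05, edgeR) and 2.01 ± 0.27 (adjusted p = 7.0e-05, edgeR). The calls of these 3 genes held in every alternative run.

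Among 27 receptors for these and other matrix ligands, 23 were tested and only Sdc4, a syndecan that binds fibronectin, was past the threshold, with a median log2 fold change of 0.31. Sdc4 rose from 226, 183 and 212 CPM to 381, 340 and 276 CPM, by 0.68 ± 0.19 in log2 (adjusted p = 0.026, edgeR), and it missed the threshold with library totals as the only scaling (0.59) and without any 1 library except the 7-day library of mouse 3, with values from 0.57 to 0.75. With mouse as a block, 3 receptors were past the threshold. The 2 added ones were Itgav, an integrin subunit for vitronectin and fibronectin, at 0.63 (adjusted p = 0.046, edgeR) and Dag1 at -0.65 (adjusted p = 0.036, edgeR). Without the block they were at 0.66 (adjusted p = 0.060, edgeR) and -0.55 (adjusted p = 0.16, edgeR).

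Of the 12 genes in the list of mesenchymal transition regulators and cadherins, 8 were tested, and none was past the threshold in edgeR or in DESeq2. Among the 8 tested, 4 had an unadjusted p under 0.05 in edgeR, and the median log2 fold change was 0.02. Snai1 and Cdh11 had no count in any library, Zeb1 and Zeb2 had 2 counts on each day, and Cdh2 (N-cadherin) had 0 at day 5 and 1 at day 7. The cadherins Cdh2 and Cdh11 thus had too few counts to be tested, and only 3 genes of the list averaged 5 CPM or more. Snai2, named after its value was seen, was at 0.57 ± 0.25 with an adjusted p of 0.15 in edgeR, and Prrx1 at 0.89 ± 0.35 with an adjusted p of 0.11, or 0.038 with mouse as a block. The other two of the 4 were lower at day 7, Twist2 at -1.62 ± 0.71 (adjusted p = 0.15, edgeR; 24 and 8 counts) and Foxc2 (adjusted p = 0.17, edgeR), which had 5 counts at day 5 and 0 at day 7. Of 12 genes of epithelial identity, all tested, 2 (16.7%) were past the threshold, beside 12.0% of all genes tested. Elf3 rose by 1.86 ± 0.30 (adjusted p = 0.00041, edgeR) and Ovol1 by 1.47 ± 0.36 (adjusted p = 0.011, edgeR), both epithelial transcription factors. Ovol1 was at 1.31 and 1.34 with adjusted p-values of 0.092 and 0.091 without the 5-day library of mouse 1 or mouse 3. The median of that list was 0.12, with Cdh1 (E-cadherin) at 0.38 ± 0.18 (adjusted p = 0.20, edgeR).

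Partners of vimentin, other intermediate filaments and contractile proteins, had a median log2 fold change of 0.12, or 0.03 with genes at 0 in 1 day at their bound. Of 14 tested genes (18 listed), 2 (14.3%) were past the threshold, beside 12.0% of all genes tested. Cnn3, a calponin of non-muscle cells, rose from 240, 238 and 226 CPM to 433, 618 and 687 CPM (log2 fold change 1.30 ± 0.20, adjusted p = 0.00033, edgeR). Acta2 (smooth muscle actin) had no count at day 5 and 40 counts at day 7, at least 3.84-fold higher when each 5-day library is set to 3 counts, or at least 2.49-fold without the 7-day library of mouse 2. In TGF-beta signalling, 5 of 16 genes rose, none fell and the median was 0.17. Tgfb2, a TGF-beta ligand, rose from 21.4, 32.6 and 33.5 CPM to 123, 136 and 124 CPM (log2 fold change 2.13 ± 0.22, adjusted p = 5.6e-06, edgeR). Skil, a feedback repressor of SMAD signalling, rose by 0.85 ± 0.20 (adjusted p = 0.0091, edgeR). It missed the threshold without any 1 of the 5-day libraries or the 7-day library of mouse 2, with values from 0.70 to 0.89.

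**Figure D4:**
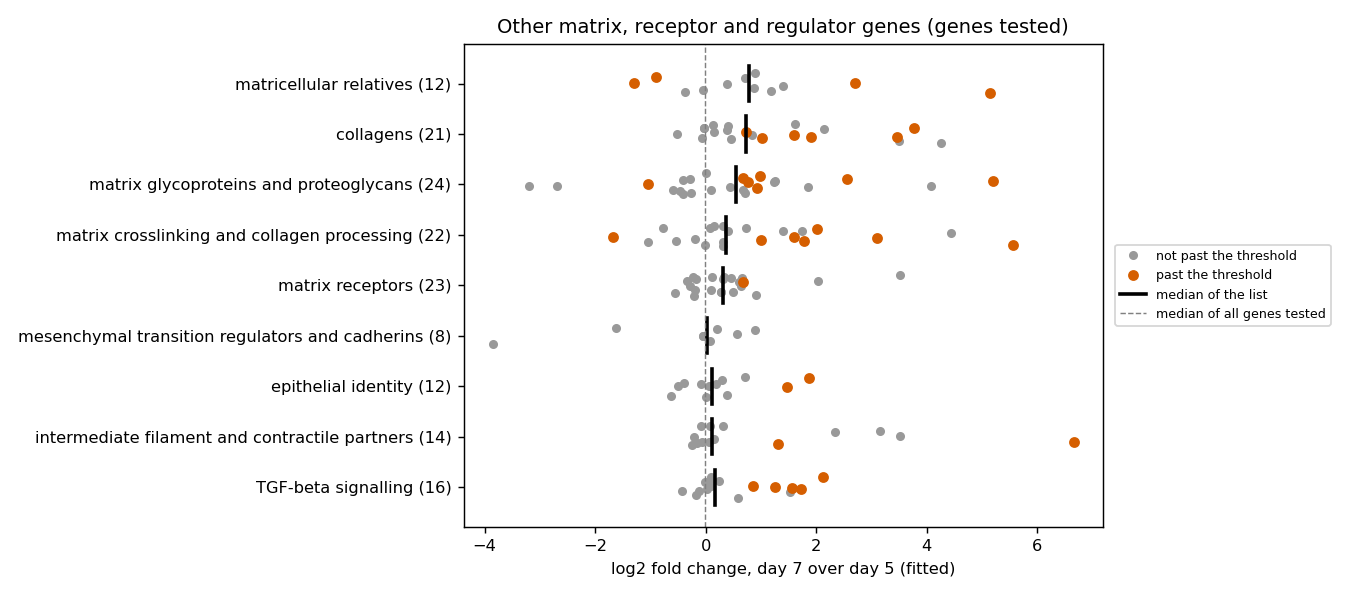
Fitted log2 fold change (day 7 over day 5) of every tested gene in the 9 related lists, 1 row per list with the number tested, orange for genes past the threshold, a bar for the median of the list and a dashed line for the median of all genes. Genes past the threshold lie mostly to the right in the matrix lists. None of the 8 tested genes of the mesenchymal list, which include no cadherin, is past it.

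Markers of other cell types were summed in each library, with an exact two-sided permutation test over the 6 libraries, adjusted over the 7 lists. Its smallest possible p is 0.1, so it could not pass 0.05, and it does not use the pairing by mouse. An exact sign-flip permutation test within the 3 mice, added after the data were seen, has a smallest p of 0.25. Within mice, the sum was higher at day 7 in 3 of 3 mice for fibroblast, myoepithelial, Schwann cell and pericyte and smooth muscle markers, in 2 for macrophage and endothelial markers and in 1 for duct epithelium markers. The 12 fibroblast markers summed to 10.3 to 17.1 CPM at day 5 and 24.5 to 25.3 CPM at day 7, with no overlap (p = 0.1, adjusted 0.233, exact permutation test). Of them 5, Col1a2, Col3a1, Lum, Dpt and Pi16, were at 0 in all libraries, and Fbln1, a matrix fibulin, held most of the sum with 98 counts at day 5 and 169 at day 7. Without Fbln1, the other 11 markers summed to 0.360 to 1.00 CPM at day 5 and 1.92 to 2.94 CPM at day 7, from 4 and 18 counts.

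Of 7 myoepithelial markers, all under 5 CPM on average, Oxtr was at 0 in all libraries. Acta2, Cnn1 and Tagln had no count at day 5 and 40, 4 and 3 counts at day 7, and Myh11 had 1 count at day 5 only. The sum of the 7 rose without overlap from 1.51 to 2.47 CPM to 7.83 to 13.5 CPM (p = 0.1, adjusted 0.233, exact permutation test), carried by Acta2 and Mylk. Its 5-day values were little above 3 counts, which is 1.04 to 1.51 CPM by library. The sum of 6 Schwann cell markers was 59.1 to 63.9 CPM at day 5 and 152 to 159 CPM at day 7, again without overlap (p = 0.1, adjusted 0.233, exact permutation test), but Ncam1 and Mbp carried it and Sox10 was at 0. Pericyte and smooth muscle markers (120.0 to 159 CPM against 151 to 185 CPM, 3 of 8 at 0, Mcam and Notch3 highest), endothelial markers (11.9 to 14.1 against 13.9 to 27.4 CPM, 3 of 10 at 0, Egfl7 and Esam highest) and macrophage markers (8.03 to 10.7 against 9.30 to 13.9 CPM, 8 of 12 at 0, Cd14 and Cd68 highest) overlapped between days, with exact permutation p-values of 0.2, 0.2 and 0.3. Within the macrophage list, Cd68 rose from 7 to 39 counts (log2 fold change 2.36 ± 0.61, adjusted p = 0.015, edgeR), while Cd14 had 59 and 45 counts (-0.48, adjusted p = 0.47, edgeR). Duct epithelium markers, led by Krt14 and Krt5, summed to 14385 to 18162 CPM at day 5 and 11561 to 16013 CPM at day 7 (p = 0.4, exact permutation test). Within that list, Krt19 rose by 1.78 ± 0.21 in log2 (adjusted p = 1.6e-05, edgeR) and Krt8 fell, at -0.65 ± 0.20 (adjusted p = 0.037, edgeR), both named after their values were seen. The part that any of these cell types had in the values of the 7 genes was not tested.

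**Figure D5:**
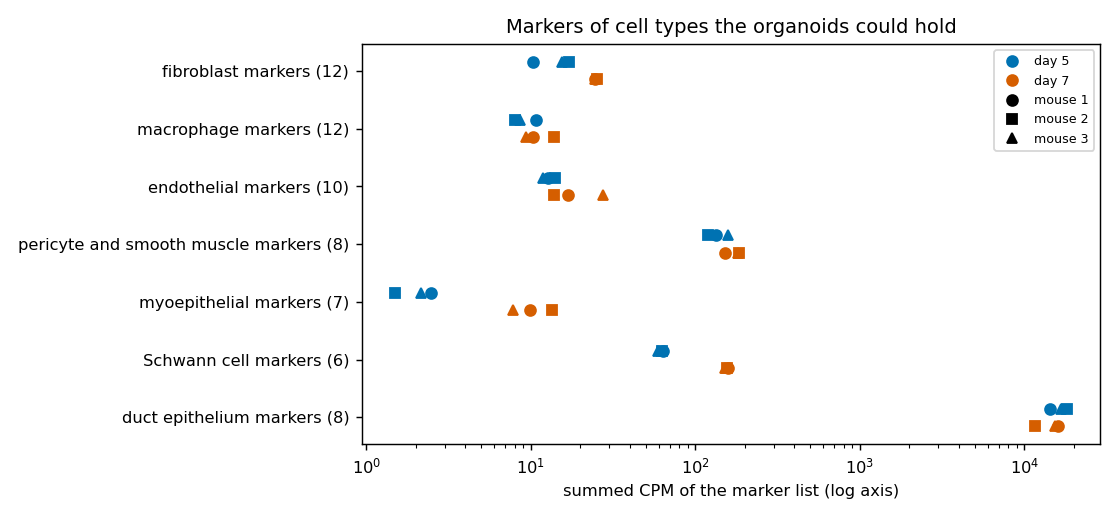
Summed CPM of the 7 cell type marker lists in each library, on a log axis, with colour for the day, symbols for the mouse and the number of genes beside each list. Duct epithelium markers are at 11561 CPM or more in every library, fibroblast markers stay at 25.3 CPM or less on both days, and the fibroblast, myoepithelial and Schwann cell sums do not overlap between days.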

How the data were processed

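RNA of 6 libraries was counted, from 5-day and 7-day mSGOs of the same 3 mice. The deposited files hold whole-number read counts per Ensembl gene ID, which the authors made from QuantSeq 3′ reads. The submitters' processing notes name GRCm39 and edgeR. The aligner, the counting settings and the strand setting are not given in the sources used here. Entries that name no gene held 13.7% to 14.4% of reads at day 5 and 9.12% to 9.74% at day 7 and were left out. Names came from GENCODE vM39 by exact ID match, which found 43465 of 47643 IDs (91.2%).

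Genes counted in 2 libraries or more, with a minimum of 1 count, were fitted in edgeR 4.0.16 (R 4.3.3) with TMM scaling, day as the only term, the two-sided quasi-likelihood test and Benjamini-Hochberg adjustment. The fit was tested on simulated data with a single spread for all genes and both days. That check did not cover the unequal spread of the 2 days. The SE of a log2 fold change is its absolute value divided by the square root of the F statistic of that test. CPM are counts per 1000000 of the TMM-scaled library size. A count of 3, the floor used for bounds, was 1.04 to 1.51 CPM by library. Precision is limited by 3 mice per day. Replicate libraries differed by more than sampling noise, with a chi-square of at least 2.09 per degree of freedom.

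The 7 genes and all lists were chosen with earlier results of these data known. Named beside them are, of each list, up to 3 genes past the threshold with the smallest p and a mean of at least 5 CPM, the 3 genes nearest in profile to each member, and the 2 highest genes of each marker list. Other genes named were chosen after their values were seen. One gene that this rule names is not reported here. Per the labels, a shared number marks 1 mouse, and the correlations of their deviations over 8172 genes were 0.137, -0.100 and 0.162. For libraries with different numbers they ran from -0.184 to 0.117, so the pairing rests on the labels. Alternatives were DESeq2 1.42.0, other scalings and filters, robust estimation, thinning to the smallest library, mouse as a block and leaving out each library.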

Additional observations from a re-analysis of the deposited data

How the results depend on the processing

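Fold changes of the 7 genes kept their direction in every alternative, and all calls but that of Ecm1 held. Without 1 library, 4 or 5 of the 7 genes were past the threshold, against 5 with all libraries. The log2 fold changes then ranged from 2.39 to 2.82 for Sparc, 2.35 to 2.70 for Tnc, 1.33 to 1.97 for Fn1, 1.15 to 1.62 for Tgfbi, 0.69 to 0.84 for Ecm1, 0.16 to 0.58 for Thbs1 and 0.15 to 0.52 for Vim. Over all genes the number past the threshold ranged from 797 to 2576, against 1901.

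For the lists, the number past the threshold without 1 library was 1 to 7 for matricellular relatives (4 with all), 3 to 7 for collagens (6), 2 to 12 for glycoproteins and proteoglycans (7), 4 to 7 for crosslinking and collagen processing (7), 0 to 3 for receptors (1), 0 to 2 for mesenchymal regulators and cadherins (0), 1 to 4 for epithelial identity (2) and 1 to 6 for TGF-beta signalling (5). With filterByExpr or a mean count of at least 10, both of which test fewer genes, matricellular relatives had 2, crosslinking genes 4 and intermediate filament and contractile partners 1 instead of 2. Thinning also left 4 crosslinking genes, and DESeq2 left 4 glycoproteins. Receptors numbered 0 with library totals only, 4 with no filter and 3 with robust estimation. With no filter, 1 gene of the list of mesenchymal regulators and cadherins was past the threshold. The cause was not tested.

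In the paired fit, with mouse as a replicate block, 3 receptors and 1 mesenchymal regulator (Prrx1) were past the threshold, and 2340 genes in all. It also raised the number that fell from 4 to 7 over the 9 lists and from 1 to 3 among glycoproteins and proteoglycans. Within lists it added Ccn1, which was higher, and Lamb1, Igfbp7 and Dag1, which were lower, and it lost Prelp, whose adjusted p was 0.054. Depth limits genes of few counts, such as Zeb1, Zeb2 and Postn, where a difference was not detectable.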
